A study of Mus musculus with 25 samples.

Results

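Nobox, Lhx8, Figla, Sohlh1, Sohlh2, Foxo3 and Taf4b encode transcription regulators of the mammalian oocyte. All 7 were taken by symbol, matched through Ensembl identifiers, and all 7 were listed in both deposited tables, which hold 25158 genes for oocytes and 34228 genes for embryos. The 25 libraries came from C57BL/6 mice and were made with Smart-seq2, a full-length cDNA method for single cells and other small samples. Germinal vesicle oocytes, the immature stage, were matured in M16 medium for 16 h to metaphase II (MII), and embryos were grown in G1 and G2 media after in vitro fertilization for 6 h. The groups were MII oocytes with VCD (n = 5) and with PBS (n = 4), 2-cell embryos with VCD (n = 4) and with PBS (n = 4), and morulae with VCD (n = 4) and with PBS (n = 4). VCD is the label of a small molecule added to the media, and PBS, a buffered salt solution, is the control. The sources used here give neither the full name nor the dose of VCD, nor the number of oocytes or embryos in a library. Nor do they say whether replicate libraries stem from different animals or cultures, so a p-value here reflects the spread among these libraries, which may be technical. All oocytes of the MII libraries, the controls included, were matured in culture. No maturation time is given for the eggs behind the embryos.

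Figla, Sohlh1 and Sohlh2 are basic helix-loop-helix proteins, which pair with other proteins of that class and bind E-boxes, short DNA words written CANNTG. Nobox carries a homeobox, and Lhx8 a homeobox with LIM domains that bind cofactors of the Ldb family. In mice these 5 genes are needed for the formation of primordial follicles or for the first steps of oocyte growth, and they turn on genes of the egg coat and of oocyte secreted signals. Foxo3 is a forkhead protein that keeps primordial follicles dormant in mice until signalling through Kit and the kinase Akt moves it out of the nucleus. Taf4b is a variant subunit of TFIID, the general factor that binds core promoters, and is enriched in gonads. The fully grown oocyte hardly transcribes, and the RNA it stored is translated, adenylated or degraded until the embryo starts its own transcription, which in mice happens mainly at the 2-cell stage.

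The promoters of Nobox, Lhx8 and Sohlh2, whose transcripts were high in oocytes and 2-cell embryos and at or near 0 in morulae, are shown to compare the words that these factors bind. They run from 250 bases before to 50 bases after the start of the gene in RefSeq (GRCm38.p6), in the direction of transcription, with each E-box in capitals. The Nobox promoter lies at chr6:43309505-43309804 on the minus strand, that of Lhx8 at chr3:154330511-154330810 on the minus strand, and that of Sohlh2 at chr3:55181794-55182093 on the plus strand.
Nobox: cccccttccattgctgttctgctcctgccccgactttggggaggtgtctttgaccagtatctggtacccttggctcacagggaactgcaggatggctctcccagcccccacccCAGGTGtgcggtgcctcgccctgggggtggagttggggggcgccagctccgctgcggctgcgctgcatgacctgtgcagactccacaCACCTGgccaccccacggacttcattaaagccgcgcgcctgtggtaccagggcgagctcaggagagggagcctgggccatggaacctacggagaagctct
Lhx8: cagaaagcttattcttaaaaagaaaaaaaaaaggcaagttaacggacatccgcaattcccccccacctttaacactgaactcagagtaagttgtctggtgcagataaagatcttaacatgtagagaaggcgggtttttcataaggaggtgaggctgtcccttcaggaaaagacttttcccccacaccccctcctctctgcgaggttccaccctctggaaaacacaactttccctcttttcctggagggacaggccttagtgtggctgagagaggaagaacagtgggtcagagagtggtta
Sohlh2: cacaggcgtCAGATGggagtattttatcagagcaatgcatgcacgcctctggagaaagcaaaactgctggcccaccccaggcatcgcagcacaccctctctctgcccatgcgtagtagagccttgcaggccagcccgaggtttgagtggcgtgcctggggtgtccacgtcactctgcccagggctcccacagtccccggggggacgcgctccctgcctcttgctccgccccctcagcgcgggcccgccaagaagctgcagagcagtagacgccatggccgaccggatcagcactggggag

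The Nobox window held 2 E-boxes, CAGGTG at -137 and CACCTG at -50, counted from the start. The Sohlh2 window held 1, CAGATG at -241, and the Lhx8 window held 0. Of the other windows looked at, that of Sohlh1 held 5 E-boxes, of which 3 were CACGTG, that of Figla held 4, and that of Foxo3 held 0. The Figla window, at chr6:86016941-86017240 on the plus strand, lies inside the gene as annotated in GENCODE M21 (chr6:86016171-86020996). Among all 32851 RefSeq promoters of the same length 72.3% held CANNTG, and 7.15% held CACGTG. Those with 3 or more sites made up 17.6% for CANNTG and 0.0883% for CACGTG. The words TAATTG and TGATTG, which Nobox and Lhx8 are known to bind, and GTAAACA, the forkhead word, were searched on both strands and were in none of the 6 windows. They were in 8.0%, 14.0% and 3.65% of all promoters. The window of Taf4b is not shown here. The promoters of Nobox and Sohlh2 had a GC content of 65% and 64.7%, and that of Lhx8 had 47%, against a median of 52.7% over all promoters.

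The 3′ ends are shown because the transcripts of Lhx8, Nobox and Sohlh2 parted between oocytes and 2-cell embryos, and stored RNAs are known to be adenylated through words near their ends. Each line gives 30 bases of the annotated transcript (GENCODE M21, GRCm38) around the poly(A) signal, with the signal and the word TTTTAT, a cytoplasmic polyadenylation element, in capitals. The Lhx8 bases lie at chr3:154306294-154306323 on the minus strand, those of Nobox at chr6:43303690-43303719 on the minus strand, and those of Sohlh2 at chr3:55209926-55209955 on the plus strand.
Lhx8: agttcATTAAAcactttgcatccttgtgaa
Nobox: cAATAAATAAAacagtaactactgggtgtt
Sohlh2: tgtttAATAAAatgttttctcTTTTATaat

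Lhx8 ended with the signal ATTAAA, Nobox with 2 overlapping copies of AATAAA, and Sohlh2 with AATAAA. In the last 100 bases, read on the transcript strand, TTTTAT occurred 2 times in Sohlh2 and 0 times in Lhx8, Nobox, Figla, Sohlh1 and Foxo3. It occurred in that window in 9.86% of 58737 annotated coding transcripts, and AATAAA or ATTAAA in 52.7%. TTTTAT was the only such element searched. Which 3′ end the oocytes used was not measured by these tables, and whether these words bear on the transcript levels was not tested.

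The libraries held between 15075832 and 20998296 counted reads or fragments, worked out from the steps of the values, so that 1 read in a gene of 1 kb was worth 0.0476 to 0.0663 FPKM (fragments per kilobase of exon, scaled to the library total). All 6 oocyte markers, among them Gdf9 and Bmp15, were at 1 FPKM or more in every MII library, all 6 markers of the 2-cell stage in every 2-cell library, and all 7 morula markers in every morula library. Not every marker was highest in its own stage. The morula marker Cdh1 averaged 26.9 FPKM in VCD morulae and 27.8 FPKM in PBS morulae, against 65.4 FPKM in VCD oocytes and 67.4 FPKM in PBS oocytes. The oocyte marker Zp3 was highest in oocytes, at 734 FPKM with VCD and 677 FPKM with PBS, but remained in embryos. It averaged 26.4 and 31.1 FPKM in VCD and PBS morulae, and 29.2 FPKM in 2-cell embryos with either agent. The cumulus and granulosa cell markers summed to 7.65 to 10.5 FPKM in MII oocytes with VCD and 9.01 to 11.8 FPKM with PBS. Most of that was Cyp19a1, with means of 8.35 FPKM with VCD and 8.85 FPKM with PBS; 11 of the 12 were summed there, and Foxl2 was not analysed in oocytes. The sum was at most 9.29 FPKM in 2-cell embryos and at most 0.238 FPKM in morulae. Of the 6 sperm markers 3 were summed in oocytes and 5 in embryos, to at most 2.15 FPKM in any library, and the others were not analysed there.

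Nobox, Lhx8 and Sohlh2 were the abundant members in MII oocytes, Foxo3 and Taf4b were several times lower, and Figla and Sohlh1 were close to the limit of detection. In 2-cell embryos Lhx8 was the highest of the 7, and in morulae Foxo3 and Taf4b were the members still measured at more than 1 FPKM. The levels below are FPKM, which are per length and so can be set side by side between genes of one library. Oocytes and embryos stand in separate tables and differ in stage and culture at once, so their values are described side by side and not tested. In libraries of an unknown number of cells, fewer cells and less RNA per cell cannot be told apart.

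**Figure D1:**
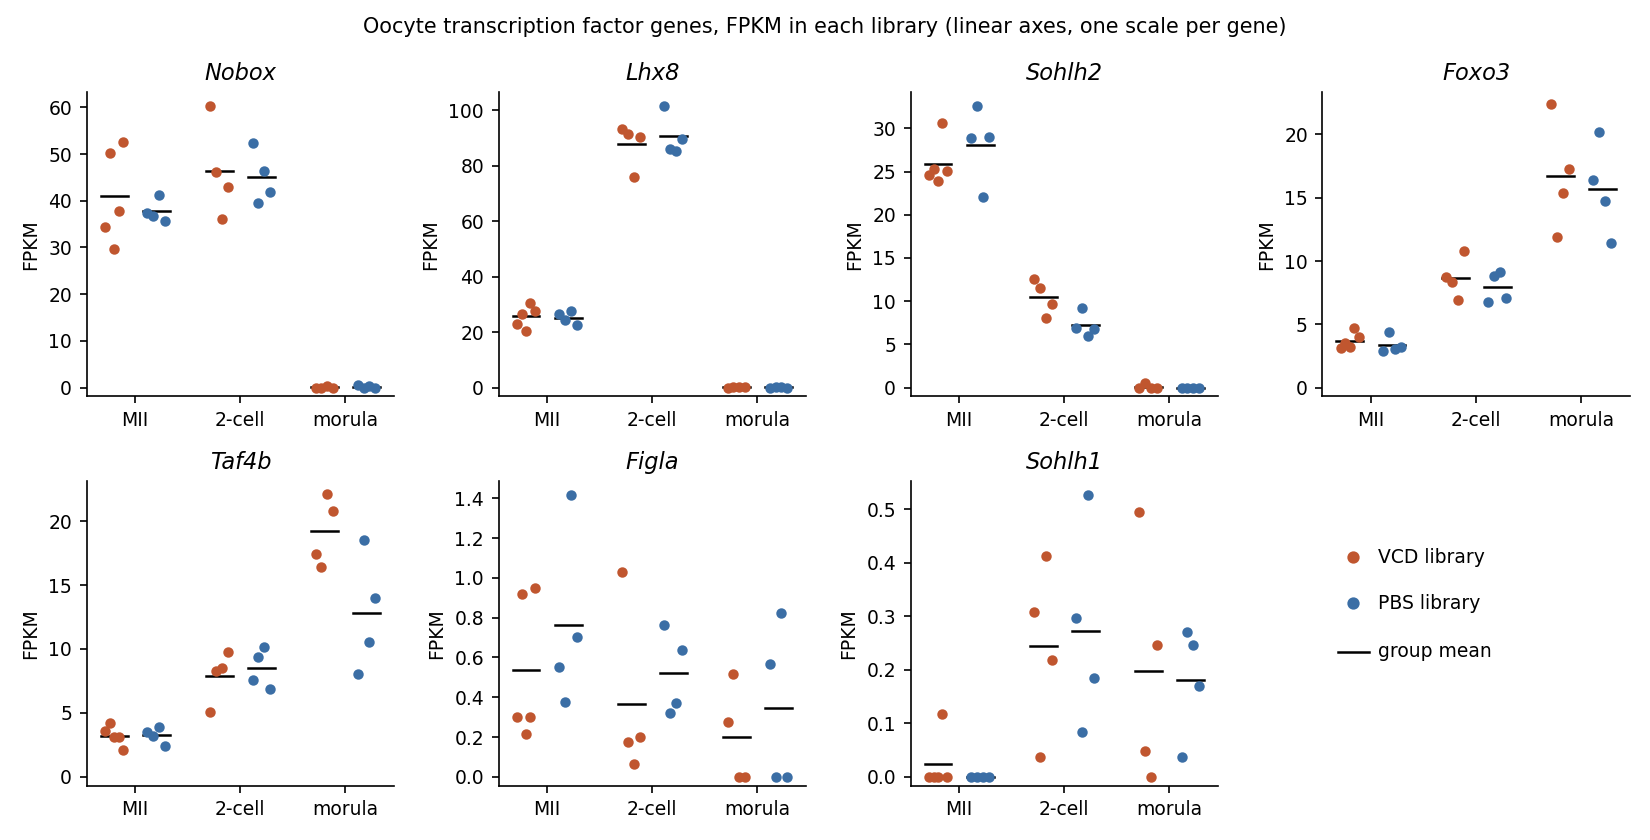
FPKM of the 7 oocyte transcription factor genes in each library (points; VCD in orange left of PBS in blue) by stage, with group means as bars and a linear axis for each gene. Nobox, Lhx8 and Sohlh2 were at or near 0 in all 8 morula libraries, while the group means of Foxo3 and Taf4b were highest there.

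Nobox (ENSMUSG00000029736, chr6:43303674-43309554, minus strand, 2012 exon bases) had 34.5, 50.1, 29.7, 37.8 and 52.7 FPKM in the 5 MII libraries with VCD, against 37.5, 36.7, 41.2 and 35.7 FPKM in the 4 with PBS. Its 2-cell values were 60.3, 46.1, 36.0 and 43.0 FPKM with VCD and 52.3, 39.6, 46.4 and 41.8 FPKM with PBS. The values of both agents overlapped in both stages, and the MII libraries with VCD spread more widely than those with PBS. In morulae Nobox was at 0, 0, 0.227 and 0 FPKM with VCD and at 0.592, 0, 0.237 and 0 FPKM with PBS, so 5 of the 8 morula libraries had no read of it.

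Lhx8 (ENSMUSG00000096225, chr3:154306294-154330659, minus strand, 2532 exon bases) had 23.1, 26.7, 20.4, 30.4 and 27.7 FPKM in MII oocytes with VCD, against 26.6, 24.2, 27.5 and 22.7 FPKM with PBS. In 2-cell embryos it had 93.3, 91.5, 76.0 and 90.2 FPKM with VCD and 102, 86.2, 85.2 and 89.7 FPKM with PBS. Every 2-cell library was above every MII library, and within each stage the agents overlapped. Among the genes listed, Lhx8 ranked between the percentiles 92.4 and 94.2 in MII oocytes and between 98.0 and 98.5 in 2-cell embryos. In morulae it was at 0, 0.171, 0.232 and 0.0251 FPKM with VCD and at 0, 0.183, 0.335 and 0 FPKM with PBS, which came from 17 reads over the VCD morulae and 24 over the PBS morulae.

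Sohlh2 (ENSMUSG00000027794, chr3:55182028-55209957, plus strand, 2364 exon bases) had 24.6, 25.3, 23.9, 30.7 and 25.05 FPKM in MII oocytes with VCD, against 28.9, 32.6, 22.0 and 29.0 FPKM with PBS. In 2-cell embryos it had 12.6, 11.5, 8.08 and 9.66 FPKM with VCD and 6.90, 9.23, 5.94 and 6.77 FPKM with PBS. Every 2-cell library was below every MII library. With VCD 3 of the 4 2-cell values were above all 4 with PBS, and the groups overlapped through PBS replicate 2. In morulae 7 of the 8 libraries had no read of Sohlh2, and VCD replicate 2 had 0.471 FPKM from 18 reads.

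Its partner Sohlh1 (ENSMUSG00000059625, chr2:25842995-25847248, minus strand, 1289 exon bases) was barely detected. In MII oocytes it had 0, 0, 0, 0.118 and 0 FPKM with VCD and no read in any of the 4 libraries with PBS, where 3 reads over the group would be 0.0324 FPKM. In 2-cell embryos it lay between 0.0373 and 0.412 FPKM with VCD and between 0.0831 and 0.526 FPKM with PBS, and in morulae between 0 and 0.494 FPKM with VCD and between 0.0369 and 0.270 FPKM with PBS. The groups overlapped in both embryo stages.

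Figla (ENSMUSG00000030001, chr6:86016171-86020996, plus strand, 836 exon bases), the factor of the zona pellucida genes, was also low. It had 0.298, 0.922, 0.217, 0.302 and 0.949 FPKM in MII oocytes with VCD, against 0.552, 0.379, 1.42 and 0.703 FPKM with PBS. Its highest value over all libraries, 1.42 FPKM in PBS replicate 3, came from 20 reads. In 2-cell embryos it had 1.03, 0.173, 0.0635 and 0.202 FPKM with VCD and 0.762, 0.320, 0.369 and 0.638 FPKM with PBS, and in morulae 0.277, 0.518, 0 and 0 FPKM with VCD and 0.570, 0, 0.824 and 0 FPKM with PBS. The agents overlapped in every stage, and neither Figla nor Sohlh1 passed the filter of 1 FPKM in at least 4 libraries in any comparison.

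Foxo3 (ENSMUSG00000048756, chr10:42181841-42276755, minus strand, 7571 exon bases) had 3.16, 3.51, 3.19, 4.67 and 4.02 FPKM in MII oocytes with VCD, against 2.85, 4.40, 3.06 and 3.18 FPKM with PBS. It had 8.74, 8.32, 6.90 and 10.8 FPKM in 2-cell embryos with VCD, against 6.80, 8.82, 9.09 and 7.05 FPKM with PBS. In morulae it had 22.4, 11.9, 15.4 and 17.3 FPKM with VCD, against 16.4, 20.2, 14.8 and 11.4 FPKM with PBS. The agents overlapped within each stage, while the ranges of MII oocytes, 2-cell embryos and morulae did not overlap with each other.

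Taf4b (ENSMUSG00000054321, 5149 exon bases, on chromosome 18) had 3.61, 4.21, 3.08, 3.09 and 2.10 FPKM in MII oocytes with VCD, against 3.47, 3.20, 3.92 and 2.40 FPKM with PBS. It had 5.05, 8.25, 8.47 and 9.74 FPKM in 2-cell embryos with VCD, against 7.57, 9.40, 10.2 and 6.85 FPKM with PBS. In morulae it had 17.4, 16.5, 22.1 and 20.8 FPKM with VCD, against 8.03, 18.5, 10.5 and 14.0 FPKM with PBS. The agents overlapped in MII oocytes and 2-cell embryos, and in morulae only through PBS replicate 2, whose value lay inside the VCD range. No 50-base word of the annotated transcripts of any of the 7 genes occurs in transcripts of another annotated gene.

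In order of their means, MII oocytes with VCD had Nobox (41.0 ± 9.99 FPKM, SD, n = 5) before Sohlh2 (25.9 ± 2.72) and Lhx8 (25.7 ± 3.94), and those with PBS had Nobox (37.8 ± 2.38 FPKM, SD, n = 4) before Sohlh2 (28.1 ± 4.42) and Lhx8 (25.2 ± 2.19). Sohlh2 and Lhx8 overlapped in both groups, and Nobox stood clear of Sohlh2 with PBS but not with VCD. Foxo3 and Taf4b overlapped with each other in every group. In 2-cell embryos the order was Lhx8 (87.8 ± 7.92 FPKM with VCD and 90.6 ± 7.50 FPKM with PBS, SD, n = 4 each) before Nobox (46.3 ± 10.2 and 45.0 ± 5.63), with no overlap between them. Then came Sohlh2, Foxo3 and Taf4b with VCD, and Taf4b, Foxo3 and Sohlh2 with PBS, where neighbours in the order overlapped in range. In morulae Taf4b averaged 19.2 ± 2.69 FPKM with VCD and 12.8 ± 4.56 FPKM with PBS (SD, n = 4 each), and Foxo3 16.8 ± 4.37 FPKM and 15.7 ± 3.65 FPKM.

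Between MII oocytes and 2-cell embryos the 3 abundant members parted. The ratio of mean FPKM in 2-cell embryos to that in MII oocytes was 3.42 with VCD and 3.59 with PBS for Lhx8, 1.13 and 1.19 for Nobox, and 0.404 and 0.257 for Sohlh2. For Foxo3 it was 2.34 with VCD and 2.35 with PBS, and for Taf4b 2.45 and 2.62. The scale of these ratios depends on the normalization: the median log2 difference between the stages over all genes was 0.50 with VCD and 0.53 with PBS on the FPKM scale. When each library was rescaled by the median ratio of its genes, the ratio was 2.40 with VCD and 2.49 with PBS for Lhx8, 0.283 and 0.177 for Sohlh2, 1.63 and 1.62 for Foxo3, and 1.69 and 1.81 for Taf4b, and that of Nobox turned to 0.800 and 0.823. A direction for Nobox between these stages therefore cannot be given.

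Ratios of members within a library are free of that scale. They are not free of differences between genes in how well their RNA was captured at each stage, which were not measured. Lhx8 over Sohlh2 lay between 0.855 and 1.11 in MII oocytes with VCD and between 0.743 and 1.25 with PBS. In 2-cell embryos it lay between 7.40 and 9.40 with VCD and between 9.34 and 14.7 with PBS, so that the lowest of the 8 embryo values was several times the highest of the 9 oocyte values. Lhx8 over Nobox lay between 0.527 and 0.806 in the 9 oocyte libraries and between 1.55 and 2.18 in the 8 libraries of 2-cell embryos. Sohlh2 over Nobox lay between 0.476 and 0.888 in oocytes and between 0.128 and 0.249 in 2-cell embryos. None of these 3 ratios overlapped between the stages, which also differ in table and culture, and no test was made.

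**Figure D2:**
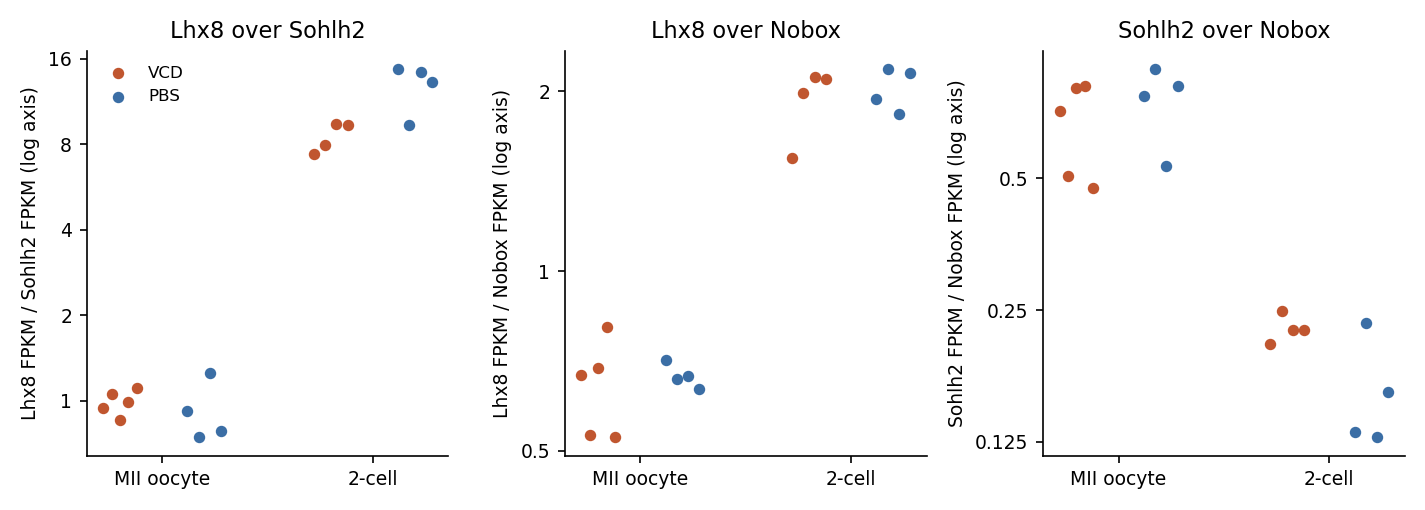
Ratio of the FPKM of 2 members within each library (points, log axes) for MII oocytes and 2-cell embryos, with VCD in orange left of PBS in blue. Lhx8 over Sohlh2 and Lhx8 over Nobox were higher in every 2-cell library than in every MII library, and Sohlh2 over Nobox was lower.

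The first comparison within a table asked whether VCD changed the members in MII oocytes. None of the 5 members tested passed (limma on log2(FPKM + 1), adjusted p = 0.999 for each), and over all 8715 genes tested 0.0115% passed. The log2 fold change of VCD over PBS was 0.08 for Nobox (SE 0.15, 95% confidence interval -0.26 to 0.42) and 0.01 for Lhx8 (SE 0.12, -0.24 to 0.27). It was -0.11 for Sohlh2 (SE 0.12, -0.36 to 0.15), 0.11 for Foxo3 (SE 0.13, -0.18 to 0.40) and -0.02 for Taf4b (SE 0.16, -0.36 to 0.33). The intervals hold 0 and leave room for differences of up to 1.34-fold for Nobox and 1.21-fold for Lhx8 on this scale. The number of members with an unadjusted p below 0.05 was 0, and limma-voom on reads recovered from the values called 0.

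In 2-cell embryos 0 of 5 members passed (limma, adjusted p = 0.999 for each), as did 0% of the 11369 genes tested, of which 391 had an unadjusted p below 0.05, and limma-voom called 0 genes. Sohlh2 had the largest difference among the members, 10.5 ± 1.99 FPKM with VCD and 7.21 ± 1.41 FPKM with PBS (SD, n = 4 each), a log2 fold change of 0.48 (SE 0.17, 95% confidence interval 0.10 to 0.85). Its unadjusted p was 0.0171, and after adjustment over all genes in limma the difference did not pass. The other members had log2 fold changes of 0.02 for Nobox (SE 0.16, -0.33 to 0.38), -0.05 for Lhx8 (SE 0.11, -0.30 to 0.20), 0.11 for Foxo3 (SE 0.16, -0.24 to 0.46) and -0.11 for Taf4b (SE 0.19, -0.55 to 0.32). The Sohlh2 reads behind the difference numbered 1778 over the VCD libraries and 1161 over the PBS libraries.

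In morulae only Foxo3 and Taf4b were abundant enough to be tested, and neither passed (limma, adjusted p = 0.99997 for each), beside 0.0100% of the 9959 genes tested. Taf4b averaged 19.2 FPKM with VCD and 12.8 FPKM with PBS, a ratio of means of 1.50 and a log2 fold change of 0.60 (SE 0.25, 95% confidence interval 0.06 to 1.14, unadjusted p = 0.0318 in limma). Foxo3 had a log2 fold change of 0.08 (SE 0.23, -0.43 to 0.60). The implied depth also differed between these groups, 15304093 to 17266923 reads in the VCD morulae and 17230875 to 20998296 in the PBS morulae, and its part in the Taf4b values was not tested.

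The VCD effect in morulae minus that in 2-cell embryos was tested as an interaction over the 16 embryo libraries. It passed for 0 of 5 members and for 0% of the 14144 genes tested (limma, adjusted p = 0.9995 for each member), with 502 genes at an unadjusted p below 0.05 and 0 genes called by limma-voom. Taf4b had an interaction of 0.72 on the log2 scale (SE 0.32, 95% confidence interval 0.04 to 1.40, unadjusted p = 0.0404 in limma). For Sohlh2 it was -0.34 (SE 0.23), for Nobox -0.20 (SE 0.25), for Foxo3 -0.03 (SE 0.28) and for Lhx8 0.02 (SE 0.19). Nobox, Lhx8 and Sohlh2 were at or near 0 in the morulae and entered through their 2-cell level, so theirs is no test of a VCD effect in morulae. Without VCD morula replicate 2, which held all the Sohlh2 reads of the morulae, that of Sohlh2 was -0.48, the 2-cell difference with its sign turned.

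**Figure D3:**
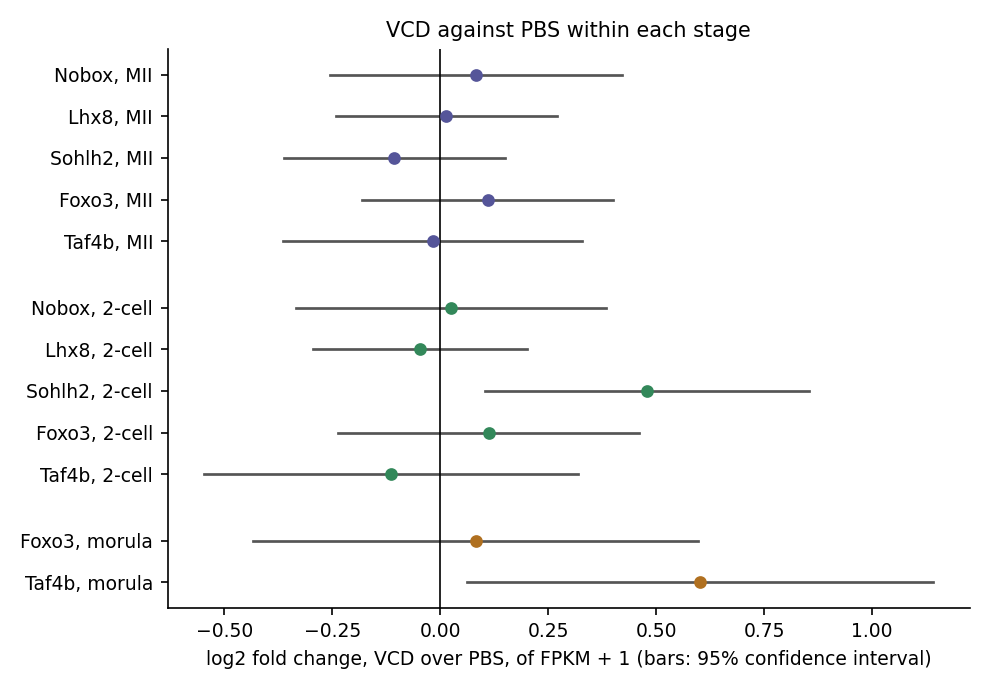
Log2 fold change of VCD over PBS, on log2(FPKM + 1), for each member tested in MII oocytes, 2-cell embryos and morulae (points), with 95% confidence intervals as bars. The intervals of Sohlh2 in 2-cell embryos and Taf4b in morulae lie above 0 before adjustment over all genes, and the other 10 hold 0.

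The comparison of stages within the embryo table set morulae against 2-cell embryos, for each agent. Nobox, Lhx8 and Sohlh2 were lower in morulae with both agents, Foxo3 was higher with both, and Taf4b was higher with VCD. Of the genes tested, 43.9% were lower and 41.0% higher in morulae with VCD, and 45.0% lower and 42.7% higher with PBS, so most genes changed between these stages. Nobox, Lhx8 and Sohlh2 passed the filter only through their 2-cell level, and so had to differ. For that reason their count supports nothing, and their sizes are given as a description.

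Lhx8 had a log2 fold change, on log2(FPKM + 1), of -6.33 with VCD (SE 0.16) and of -6.35 with PBS (SE 0.14). Nobox had -5.47 with VCD (SE 0.19) and -5.27 with PBS (SE 0.18). Sohlh2 had -3.36 with VCD (SE 0.20) and -3.02 with PBS (SE 0.14). Because 1 FPKM was added to every value, these figures understate the change of transcripts that end near 0. By group means of FPKM, Lhx8 was 819-fold lower in morulae with VCD (17 against 16052 reads) and 700-fold lower with PBS (24 against 15439 reads). Nobox was 815-fold lower with VCD (7 against 6654 reads) and 217-fold lower with PBS (34 against 6070 reads). Sohlh2 was 88.8-fold lower with VCD (18 against 1778 reads), and with PBS, where no morula library had a read, at least 428-fold lower, taking 3 reads over the group as the floor. Single morula libraries set these folds. Without VCD replicate 2, which held all 18 Sohlh2 reads, Sohlh2 was at least 398-fold lower with VCD. Without VCD replicate 3, which held all 7 Nobox reads, Nobox was at least 1528-fold lower with VCD, and without PBS replicate 1, which held 25 of 34 reads, 569.7-fold lower with PBS. Lhx8 was 1342-fold lower without VCD replicate 3 and 1483-fold lower without PBS replicate 3. Leaving out some other morula libraries made the folds smaller. Lhx8 was then 614-fold lower without VCD replicate 1 and 525-fold lower without PBS replicate 1. Nobox was 612-fold lower without VCD replicate 1 and 163-fold lower without PBS replicate 2. Sohlh2 was 66.6-fold lower without VCD replicate 1. No difference between the agents is read from these folds.

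Foxo3 had a log2 fold change of 0.85 with VCD (SE 0.21, limma adjusted p = 0.00313) and of 0.88 with PBS (SE 0.18, adjusted p = 0.000815) in morulae over 2-cell embryos. It was higher in all 4 morula libraries than in all 4 2-cell libraries with each agent, by 1.93 times with VCD and 1.98 times with PBS in mean FPKM. Taf4b had a log2 fold change of 1.21 with VCD (SE 0.21, limma adjusted p = 0.000230), with no overlap between the stages and a ratio of means of 2.44. With PBS it had 0.49 (SE 0.23, limma adjusted p = 0.0691), the stages overlapped, and the ratio of means was 1.50. Without PBS morula replicate 1, the lowest of its group, the PBS value was 0.67 with an adjusted p of 0.0112 in limma. That Taf4b passed with one agent and not with the other does not show that the agents differ, which is what the interaction above tested.

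The size of the increases depends on the scale. The median log2 fold change of all genes tested was -0.08 with both agents on the FPKM scale, and -0.37 with VCD and -0.44 with PBS after each library was rescaled by the median ratio of its genes. Foxo3 then had 0.57 with VCD (limma adjusted p = 0.0379) and 0.55 with PBS (adjusted p = 0.0120). Taf4b had 0.92 with VCD (limma adjusted p = 0.00131) and 0.16 with PBS (adjusted p = 0.505). Relative to the median gene, Foxo3 was 0.93 higher with VCD and 0.97 with PBS on the FPKM scale and 0.94 and 0.99 after rescaling.

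The genes these factors are known to act on were followed over the same libraries. The lists below are textbook targets and partners, they differ in size, and their counts are read beside those of all genes. Kit, Pou5f1 and Tbpl2 each stand in more than 1 list, so the counts of the lists are not independent. Between VCD and PBS 0 genes of these lists passed in any stage (limma, adjusted over all genes), 1 of 67 tested in MII oocytes, 1 of 74 in 2-cell embryos and 3 of 61 in morulae had an unadjusted p below 0.05, and limma-voom called 0. Over all genes tested 2.81%, 3.44% and 3.12% had one in these stages. In the comparison of stages, genes near or below 1 FPKM in one stage passed the filter through their level in the other and so had to differ, and the counts of the lists include them. Of the 4 targets of Figla and the Sohlh proteins, the egg coat genes Zp1, Zp2 and Zp3 and the receptor Kit, 3 were lower in morulae with each agent and 1, Zp3, did not pass, with a median log2 fold change of -3.80 with VCD and -3.61 with PBS. Zp2 had 0.962 ± 0.424 FPKM in VCD morulae and 66.3 ± 10.7 FPKM in VCD 2-cell embryos, and 0.809 ± 0.320 and 60.6 ± 7.61 FPKM with PBS (SD, n = 4 each). In MII oocytes it had 459.8 ± 309 FPKM with VCD (n = 5) and 413 ± 165 FPKM with PBS (n = 4), while Figla was at or below 1.42 FPKM.

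Of the 11 targets of Nobox and Lhx8, 10 were tested with VCD, of which 9 were lower and 1 higher in morulae, and 11 with PBS, of which 9 were lower, 1 higher and 1 did not pass. The median log2 fold change was -3.37 with VCD and -3.59 with PBS. The largest was that of Rfpl4, an oocyte RING finger gene, with 1.51 ± 0.793 FPKM in morulae against 3645 ± 254 FPKM in 2-cell embryos with VCD, and 0.772 ± 0.398 against 3818 ± 360.0 FPKM with PBS (SD, n = 4 each). Bmp15, a growth factor that oocytes secrete, had 1.27 ± 0.858 FPKM in morulae against 1562 ± 232 FPKM in 2-cell embryos with VCD, and 0.908 ± 0.0739 against 1562 ± 202 FPKM with PBS. The gene that was higher was Pou5f1, the pluripotency factor Oct4, named after its values were seen, with log2 fold changes of 1.42 with VCD and 1.28 with PBS (limma adjusted p = 0.000103 and 0.000568).

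Of the 9 proteins that pair with these factors or block the pairing, 6 were tested with each agent, and 2 were higher, 2 lower and 2 did not pass. Ldb2, a cofactor of LIM homeobox proteins, had 0.0477 ± 0.0955 FPKM in morulae against 10.5 ± 2.35 FPKM in 2-cell embryos with VCD, and 0.0119 ± 0.0238 against 9.62 ± 0.869 FPKM with PBS (SD, n = 4 each). Ldb1, the other Ldb cofactor listed and named after its values were seen, was higher in morulae. It had 8.55 ± 1.60 against 3.86 ± 1.05 FPKM with VCD, and 8.85 ± 2.85 against 3.31 ± 0.290 FPKM with PBS. Id3, which blocks the pairing of basic helix-loop-helix proteins, had 229 ± 114 FPKM in morulae against 1.23 ± 0.501 FPKM in 2-cell embryos with VCD, and 205 ± 44.7 against 1.95 ± 0.823 FPKM with PBS. Ldb2 and Id3 entered the test through the stage where they are high, and no p is given.

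Foxo1 was, unlike its relative Foxo3, lower in morulae. With VCD it had 1.28 ± 0.287 FPKM against 9.65 ± 2.90 FPKM in 2-cell embryos, and with PBS 1.07 ± 0.245 against 8.84 ± 0.771 FPKM (SD, n = 4 each). The log2 fold changes were -2.20 and -2.26. Foxo1 was near 1 FPKM in morulae and entered the test through its 2-cell level, so no p is given. Foxo4 and Foxo6 did not reach the filter. Of 21 genes of the signalling upstream of Foxo3, 21 were tested with VCD, of which 7 were higher, 10 lower and 4 did not pass, and 20 with PBS, of which 7 were higher, 10 lower and 3 did not pass. Among them Pik3r1, the regulatory subunit of PI3-kinase, was lower (1.37 ± 0.586 against 14.9 ± 1.15 FPKM with VCD, 0.927 ± 0.128 against 15.2 ± 0.605 FPKM with PBS). Rps6, a ribosomal protein in the list as a readout of the pathway and not as a step above Foxo3, was higher (1789 ± 504 against 53.5 ± 9.88 FPKM with VCD, 1821 ± 367 against 52.6 ± 8.28 FPKM with PBS). The readout is its phosphorylation, which RNA levels do not measure.

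Of 13 genes known as Foxo targets 12 were tested with each agent. With VCD 7 were higher, 4 lower and 1 did not pass (median log2 fold change 1.28), and with PBS 7 were higher and 5 lower (median 1.13), against a median of -0.08 over all genes. The cell cycle inhibitor Cdkn1b was lower in morulae, at 0.0517 ± 0.0448 FPKM against 2.42 ± 0.505 FPKM in 2-cell embryos with VCD and 0.0453 ± 0.0285 against 2.89 ± 0.477 FPKM with PBS. Txnip, which binds thioredoxin, was lower too, at 3.52 ± 1.87 FPKM against 14.6 ± 1.69 FPKM with VCD and 1.01 ± 0.515 against 13.2 ± 0.889 FPKM with PBS. The list thus moved in both directions.

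Taf4b was set beside 21 genes of TFIID and TFIIA, of which 18 were tested with each agent. With VCD 4 were higher, 10 lower and 4 did not pass, and with PBS 6 were higher, 10 lower and 2 did not pass, with median log2 fold changes of -0.56 and -0.66. Tbpl2, a paralog of the TATA-binding protein that oocytes use, was listed at 0 in all 8 morula libraries, against 24.0 ± 3.65 FPKM in 2-cell embryos with VCD and 26.2 ± 2.55 FPKM with PBS. Taf9b, a TFIID subunit, had 0.245 ± 0.165 FPKM in morulae against 142 ± 29.95 FPKM in 2-cell embryos with VCD, and 0.620 ± 0.426 against 172 ± 21.9 FPKM with PBS. Taf4, the paralog whose place Taf4b can take in the complex and which is named here after its values were seen, was lower in morulae, at 4.18 ± 0.756 FPKM against 19.8 ± 4.18 FPKM with VCD and 4.32 ± 0.907 against 17.3 ± 2.10 FPKM with PBS. Its log2 fold change was -1.998 with VCD and -1.79 with PBS (limma adjusted p = 2.93e-06 and 1.01e-06). The mean level of Taf4b was below that of Taf4 in 2-cell embryos and above it in morulae with both agents.

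The list drawn as oocyte growth factors held 8 genes, which were Tbpl2, Stat3, Sub1, Dynll1, Gata4, Gata6, Stra8 and Pou5f1. It is mixed and not limited to oocyte growth, and 7 of the 8 were tested with each agent. With VCD 2 were higher, 3 lower and 2 did not pass, and with PBS 2 were higher, 4 lower and 1 did not pass. Gata6, a factor of the primitive endoderm, was higher in morulae, at 19.3 ± 3.81 FPKM against 1.18 ± 0.339 FPKM in 2-cell embryos with VCD and 22.6 ± 6.74 against 1.13 ± 0.442 FPKM with PBS.

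**Figure D4:**
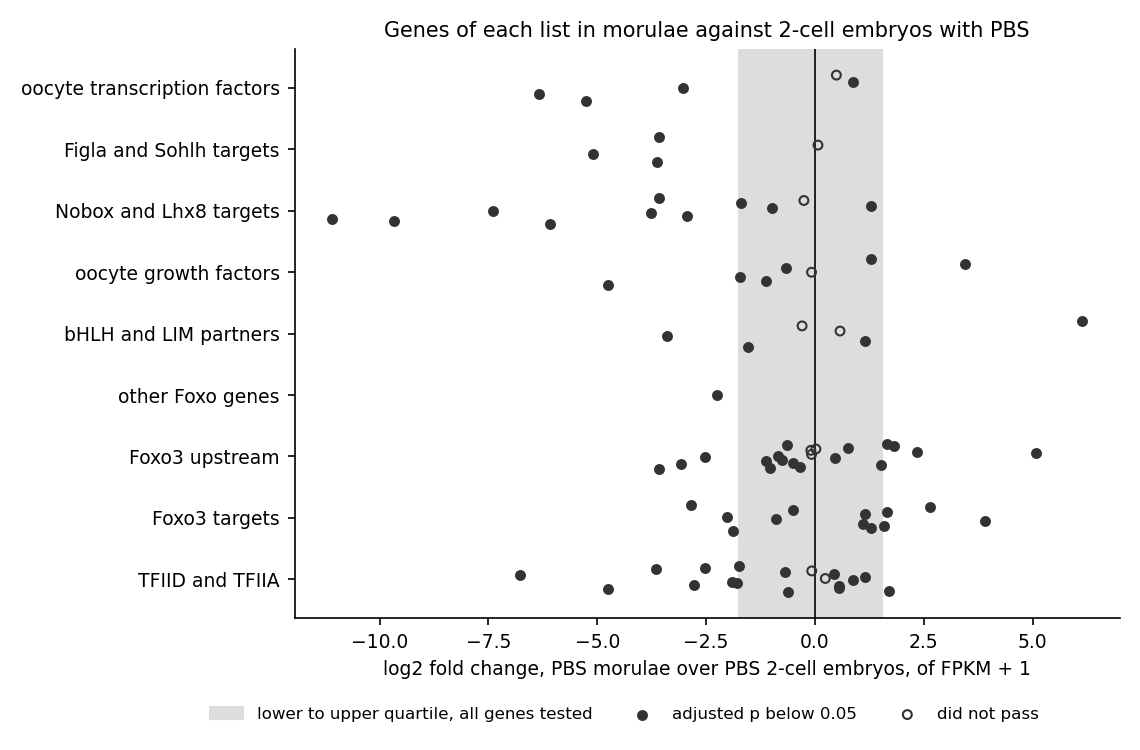
Log2 fold change of PBS morulae over PBS 2-cell embryos, on log2(FPKM + 1), for the tested genes of each list (filled points, adjusted p below 0.05; open points, did not pass), with the lower to upper quartile of all genes tested (-1.74 to 1.54) shaded. The lists of Figla and Sohlh targets and of Nobox and Lhx8 targets lie mostly at the low end, Foxo1, the Foxo relative tested, was also lower, and the other lists spread to both sides.

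The genes whose pattern was most like each member were ranked by Pearson's r of log2(FPKM + 1), given as a description with no test. Over the 16 embryo libraries, which fall into 2 stages, the libraries of a stage share its level, and 12459 other genes were ranked. The nearest to Lhx8 were E330034G19Rik (r = 0.9994), Slc25a48, Epsti1, Tmem232 and Dnajb4, and the nearest to Nobox were Hmces (r = 0.9986), Samd10, Efcab6, AU022751 and Elmod2. The nearest to Sohlh2 were Gm9173 (r = 0.9945), Atp2b3, Papss1, Lrrc8d and Nckap5. Those nearest to Foxo3 were Dnajc21 (r = 0.945), Slc7a5, Bag6, Map1s and Rbm25, and among those nearest to Taf4b were Ei24 (r = 0.918), Mms22l, Dusp4 and the TFIID subunit Taf2. Over the 9 oocyte libraries, where 8714 genes were ranked, the nearest were Ppia, Atp6v1c1 and Rpl11 for Nobox (highest r = 0.983), Baiap2, Jup and Cenps for Lhx8 (0.947), Smg1, Gm47321 and Efnb2 for Sohlh2 (0.915), Myo5a, Rbm27 and Pced1b for Foxo3 (0.933), and Nsmce3, Btaf1 and Rdh14 for Taf4b (0.972). No gene stood in both rankings of a member, but with so few genes named from so many, nothing is read from this.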

How the data were processed

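The authors deposited FPKM in 2 tables, 1 for oocytes and 1 for embryos, made with Bowtie2 2.2.3 and TopHat2 2.0.12 per the submitters' processing notes. Those notes name the chicken build galGal4, while the tables hold mouse Ensembl identifiers. The counting tool and annotation: not given in the sources used here. Symbols were matched for 25073 and 34065 identifiers. FPKM times GENCODE M21 exon length fell on whole reads (within 0.01) for 90.6% to 93.4% of values under 200 reads, which gave the depth and the recovered reads. Reads without molecular identifiers are not independent molecules, so floors of 3 reads cover counting error only.

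Tests used limma 3.58.1 (R 4.3.3) with a variance trend on log2(FPKM + 1), keeping genes that reached 1 FPKM in 4 or more libraries of a comparison, adjusted by Benjamini-Hochberg over all genes, with a threshold of 0.05. They were tested on simulated data with 200 changed genes. Alternatives were a pseudocount of 0.1, no filter, a filter of 5 FPKM, median-ratio scaling, limma-voom on recovered reads, a replicate block, all 16 embryo libraries in 1 fit, and leaving out each library on the genes of the full comparison. Members and lists were chosen with earlier results of these data known. Named were all members, the 2 genes of smallest p per list between PBS morulae and 2-cell embryos, any list gene passing between VCD and PBS, and the 5 (embryos) or 3 (oocytes) genes most like each member, of which 1 is not reported here. Figures were drawn with matplotlib 3.10.9 in Python 3.11.15.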

Additional observations from a re-analysis of the deposited data

Results flagged for a closer look

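Of 40 sets of a member's values in 1 group that were looked at for a library standing apart, 5 held one. Chance gives about 1 in 20 where values vary freely, but 3 of the 5 hold 1 library with reads and the rest at 0, which always counts as standing apart, so no excess is read from the number. Sohlh2 was at 30.7 FPKM in MII oocytes with VCD, replicate 4, above the next value of 25.3 FPKM, from 1435 reads. This is also the highest of the 5 VCD libraries for Lhx8 and Foxo3. Figla was at 1.03 FPKM in VCD 2-cell replicate 1, from 13 reads, with the next library at 0.202 FPKM. Nobox was at 0.227 FPKM in VCD morula replicate 3, from 7 reads, and at 0 in the other 3. Sohlh2 was at 0.471 FPKM in VCD morula replicate 2, from 18 reads, and at 0 in the other 3. Sohlh1 was at 0.118 FPKM in VCD MII replicate 4, from 3 reads, and at 0 in the other 4.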

How the results depend on the processing

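No member passed between VCD and PBS in any stage, or in the interaction, under any alternative run, and Foxo3 passed between morulae and 2-cell embryos under all of them with both agents. Nobox, Lhx8 and Sohlh2 did too, but entered through their 2-cell level and had to, so this says nothing of their stability. Taf4b passed there with PBS only without PBS morula replicate 1 (0.67). The depth, 4 or 5 libraries a group and the added 1 FPKM limit what could be seen of Figla, Sohlh1 and the morula traces.

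Small VCD differences changed sign under some alternatives. On the log2 scale in MII oocytes, the replicate block gave -0.0161 for Lhx8, -0.0138 for Nobox and 0.0889 for Taf4b. It also left out VCD replicate 5, which has no PBS partner, and leaving out that library alone gave the same values, so the lost library and not the block changed these signs. For the others the cause was not tested. Median-ratio scaling gave -0.00394 for Lhx8. For the interaction of Sohlh2, a pseudocount of 0.1 gave 0.0994 and limma-voom 1.004, where morulae hold almost no reads. Leaving out 1 library at a time gave, in MII oocytes, -0.0483 to 0.0899 for Lhx8, -0.0138 to 0.187 for Nobox and -0.120 to 0.0889 for Taf4b. In 2-cell embryos it gave -0.0779 to 0.0193 for Lhx8, -0.107 to 0.135 for Nobox and -0.216 to 0.0597 for Taf4b. It gave -0.0616 to 0.224 for Foxo3 in morulae, and for the interaction -0.0429 to 0.108 for Lhx8 and -0.174 to 0.112 for Foxo3.

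The values did not show whether replicate numbers pair the libraries. Same-numbered deviations correlated between -0.325 and -0.109 in MII oocytes, -0.152 and 0.163 among 2-cell libraries, and -0.0505 and 0.378 among morulae. The PBS library most like a VCD library was the same-numbered one for 2-cell replicate 1 and for morula replicates 1 and 4. For the rest of those compared it was another one. The replicate block left 0 members called in each stage. Over all genes, the 1 gene called in MII oocytes was not called (0) with the pseudocount of 0.1, no filter, the 5 FPKM filter, limma-voom or the block. In 2-cell embryos 0 genes became 1 with the block and 2 in 1 fit of all embryos. In morulae 1 gene became 0 with the 5 FPKM filter or limma-voom, 3 in 1 fit of all embryos and 2 without PBS replicate 1. The interaction had 1 call with the pseudocount of 0.1, 2 without a filter, 2 without 2-cell VCD replicate 1 and 1 without morula VCD replicate 4, against 0. Between stages the 5 FPKM filter gave 6444 genes with VCD and 6682 with PBS, against 10479 and 10978, since fewer genes were tested.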
